A study of Mus musculus with 8 samples.

Results

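The cells described here are blood neutrophils that still held messenger RNA of secondary granule proteins. They were selected on their own counts, in the 2 blood libraries of the study. A droplet barcode was kept with at least 500 unique molecular identifiers (UMIs, each counting 1 captured RNA molecule) of genes, at least 200 genes, at most 25% mitochondrial UMIs and at least 20 hashtag UMIs. It was taken as a neutrophil where S100a8, S100a9, Retnlg, Csf3r and Cxcr2 together made up 5% or more of its gene UMIs, and as granule-rich where Ngp, Camp and Ltf together had 3 or more UMIs. This rule found 478 granule-rich cells among 11469 blood neutrophils with a genotype, out of 32121 barcodes that passed the filters in all 4 libraries. Another 23 granule-rich barcodes had a hashtag ratio between the limits of both genotypes and enter no group. In the 2 tumor libraries the same rule found 2 granule-rich cells among 233 neutrophils.

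The study compared wild-type mice (WT, Ythdf2 fl/fl) with Ythdf2-cKO mice (Lyz Cre+ and Ythdf2 fl/fl), both on C57BL/6J. The methods name both sexes and an age of 8 to 10 weeks for the experiments at large. They do not give the sex of these pools. No granule-rich cell in any group held a UMI of Xist, an RNA of female cells, and the sex of the pools was not tested. All mice carried MC38 tumors, grown from a mouse colon adenocarcinoma line. Tumors received no irradiation (control) or 1 local dose of 20 Gy of ionizing radiation (IR), with collection 3 days later, and every library was made from cells sorted as CD45+, CD11b+ and Ly6C high. WT and cKO cells carried different hashtag antibodies and shared a library. Control and IR blood were separate libraries, so a difference between treatments cannot be told apart from one between libraries. A barcode was called WT with at least as much B0301 as B0302 hashtag, and cKO with at least 4 times as much B0302 as B0301. Per the study, 5 mice were pooled per group, so each of the 4 blood groups was 1 sample. Cre at the Lyz2 locus deletes in myeloid cells at large, not in neutrophils alone. No replicate error exists, no test was run, and every interval given is a 95% interval for counting error only.

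Neutrophils mature in the bone marrow and fill their granules in waves. Promyelocytes make the proteases and myeloperoxidase of the primary granules, myelocytes and metamyelocytes make the secondary granule proteins such as lactoferrin, cathelicidin and lipocalin-2, and gelatinase appears later. The transcription factor C/EBPε is required for the secondary granule genes, and their messages are largely lost before the cell enters the blood, so a blood neutrophil that holds them is usually read as immature. YTHDF2, the protein deleted in the cKO, binds N6-methyladenosine in messenger RNA and promotes its decay.

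The 3 secondary granule genes of the rule lie within 1.2 Mb of chromosome 9 in mm10. Ngp (neutrophilic granule protein) spans 110419747 to 110423012 on the plus strand, Camp (the cathelicidin antimicrobial peptide) 109847379 to 109849617 on the minus strand, and Ltf (lactoferrin, which binds iron) 111019271 to 111042767 on the plus strand. Every granule-rich cell in each group held Ngp. Camp was found in 24 of 49 cells of control WT, 150 of 375 of control cKO, 22 of 32 of IR WT and 9 of 22 of IR cKO, and Ltf in 18, 120, 18 and 8 of the same cells. Ngp was the only 1 of the 3 in 23, 206, 10 and 12 cells. The choice of cells therefore rested on Ngp in each group.

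The bases just before the RefSeq start of the rule's genes, and of Lcn2 (lipocalin-2, which binds iron-carrying siderophores), are shown because these messages occur together in the selected cells. They are the 250 bases upstream of the RefSeq start on GRCm38.p6, 5′ to 3′ on the gene's strand. The gene spans in this text are those of GENCODE, which start further upstream for these genes. The Lcn2 window thus lies within its GENCODE span, and the Ngp, Camp and Ltf windows overlap theirs in part. Capitals mark matches to TTNNGNAA or its reverse complement TTNCNNAA, a loose form of the site that C/EBP factors bind.
Ngp (chr9:110419558-110419807, plus strand): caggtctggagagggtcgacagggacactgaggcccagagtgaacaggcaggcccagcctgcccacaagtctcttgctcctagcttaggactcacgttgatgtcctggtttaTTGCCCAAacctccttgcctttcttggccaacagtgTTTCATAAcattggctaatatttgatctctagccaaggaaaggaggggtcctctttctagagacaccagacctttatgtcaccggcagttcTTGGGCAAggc
Camp (chr9:109849457-109849706, minus strand): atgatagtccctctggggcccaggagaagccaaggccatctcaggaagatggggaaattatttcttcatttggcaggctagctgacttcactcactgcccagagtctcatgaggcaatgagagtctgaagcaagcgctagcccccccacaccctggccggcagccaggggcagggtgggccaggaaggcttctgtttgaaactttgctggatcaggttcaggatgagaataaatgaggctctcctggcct
Ltf (chr9:111019042-111019291, plus strand): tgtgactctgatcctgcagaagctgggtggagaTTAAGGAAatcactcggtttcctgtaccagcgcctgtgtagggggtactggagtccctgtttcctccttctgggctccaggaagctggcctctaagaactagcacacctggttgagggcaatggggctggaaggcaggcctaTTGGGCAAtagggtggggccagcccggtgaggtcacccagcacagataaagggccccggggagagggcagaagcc
Lcn2 (chr2:32387740-32387989, minus strand): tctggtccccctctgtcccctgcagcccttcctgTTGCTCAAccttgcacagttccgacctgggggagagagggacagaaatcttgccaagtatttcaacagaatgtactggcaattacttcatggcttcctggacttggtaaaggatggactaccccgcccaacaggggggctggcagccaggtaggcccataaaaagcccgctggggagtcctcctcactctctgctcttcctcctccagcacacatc
Ngp had 3 matches, Ltf 2, Lcn2 1 and Camp 0. A match occurred in 36.8% of the 32851 promoter windows of this length in the RefSeq table, so these letters are common, and a match is a description of the sequence and not a bound site. Among other granule genes described below, Mmp8 had 2 matches, Chil3 3, Cd177 1 and Cybb 0.

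Shares are of neutrophils that passed the CD11b+ and Ly6C high sort and are not frequencies in whole blood. Among these neutrophils, granule-rich cells were most frequent in the control blood of Ythdf2-cKO mice. They made up 1.54% of neutrophils in control WT (49 of 3180, 1.14% to 2.03% by Clopper-Pearson), 14.8% in control cKO (375 of 2541, 13.4% to 16.2%), 1.02% in IR WT (32 of 3141, 0.698% to 1.44%) and 0.844% in IR cKO (22 of 2607, 0.530% to 1.27%). The interval of control cKO stood apart from those of the other 3 groups, which overlapped one another. Without IR the share was 13.2 percentage points higher in cKO than in WT (Newcombe interval 11.8 to 14.7), or 9.58-fold. After IR the cKO share was lower than the control cKO share by 13.9 points (difference -13.9, interval -15.4 to -12.5), a 17.5-fold ratio of control over IR. In WT the difference between IR and control was -0.522 points (-1.09 to 0.0368), and between cKO and WT after IR it was -0.175 points (-0.680 to 0.348). Both of these intervals include 0. Whether the genotype difference itself differed between control and IR could not be tested with 1 pool per group, and the pools cannot be told apart from the genotypes and treatments they stand for.

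**Figure D1:**
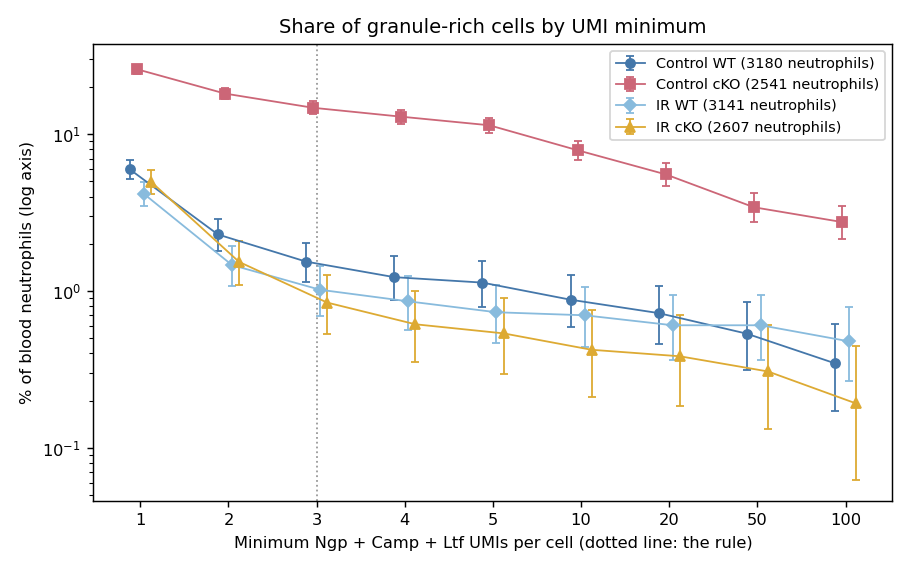
Share of blood neutrophils (percent, log axis) with at least the given number of Ngp, Camp and Ltf UMIs, for the 4 groups, with 95% Clopper-Pearson intervals for counting error. The control cKO points lie above those of the other groups at every minimum from 1 UMI (26.0%) to 100 UMIs (2.75%), and the dotted line marks the rule's minimum of 3.

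Control cKO was the highest group at every minimum of UMIs tried. With at least 1 UMI the shares were 5.97%, 26.0%, 4.17% and 4.99% in control WT, control cKO, IR WT and IR cKO, and with at least 10 UMIs 0.881%, 7.91%, 0.700% and 0.422%. With at least 100 UMIs they were 0.346%, 2.75%, 0.478% and 0.192%. The other 3 groups changed places among themselves, with IR cKO above IR WT at 1 UMI and IR WT above control WT at 100 UMIs. Over all groups, 143 neutrophils had 2 of these UMIs, just outside the rule, 67 had 3 and 48 had 4. Summed over these cells, Lcn2 stood at 3866, 4691 and 5258 CPM (its UMIs per 1000000 gene UMIs) and Il1b, which encodes the cytokine IL-1β, at 4486, 3438 and 3791 CPM. No gap separated cells just inside from cells just outside.

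Granule-rich cells were deeper than other neutrophils, and a deeper cell reaches a fixed UMI minimum more easily. Their median was 6747, 4726, 8972 and 5949 gene UMIs in control WT, control cKO, IR WT and IR cKO, against 2538, 2546, 2627 and 2604 in the other neutrophils. When every neutrophil was thinned to 500 gene UMIs, which all of them reached, the shares were 0.627%, 5.16%, 0.568% and 0.316%, and control cKO was again highest. Only 33 of the 478 cells had between 1000 and 3000 gene UMIs, and within that range the shares were 0.177%, 1.66%, 0.0965% and 0.0560%.

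Granule UMIs were also counted in barcodes with at least 3 UMIs of marker genes of other cell types. Barcodes that met the neutrophil rule were left out of these sets beforehand, so those with much neutrophil RNA could not be counted. The low counts are in part set by that choice, and the part of free RNA in the granule-rich shares was not tested. In the control library 0 of 67 B cell marker barcodes (median 3605 UMIs) and 0 of 332 NK or T cell marker barcodes (median 3452 UMIs) had 3 granule UMIs, which allows shares of up to 4.48% and 0.904% by a limit of 3 counts (Clopper-Pearson upper ends 5.36% and 1.10%). Of 2617 monocyte marker barcodes with a median of 9896 UMIs, 1 did (0.0382%). In the IR library the counts were 0 of 31, 0 of 177 and 0 of 2203. Ngp stood at 405 CPM in control droplets of at most 100 UMIs and at 165 CPM in those of the IR library, against at most 3.74 CPM in the same libraries' monocyte, B, NK and T marker barcodes taken over all hashtags, and 6.44 CPM in the 35 control B cell marker barcodes with the WT hashtag. Ngp was thus present in near-empty droplets and close to absent in barcodes of other types that did not meet the neutrophil rule.

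Hashtags and other lineages differ between the groups and stand beside every comparison that follows. A median of 6.71% of hashtag UMIs in control WT granule-rich cells came from the other hashtag, against 1.81% in control cKO, 3.97% in IR WT and 1.17% in IR cKO. In control WT 35 of 49 cells, and in IR WT 31 of 32, also had 4 times as much of their own hashtag, the margin that cKO cells had to meet. With that margin for WT too, control WT held 1.14% granule-rich cells. At least 2 UMIs of monocyte, B, T or NK marker genes were found in 12, 53, 7 and 4 granule-rich cells in the order control WT, control cKO, IR WT and IR cKO. No doublet caller was run, and leaving out all such neutrophils gave shares of 1.32%, 14.2%, 0.873% and 0.765%. The 2 blood libraries shared 24 barcode sequences, and no granule-rich barcode of 1 library was a granule-rich barcode of another. Of the granule-rich control blood barcodes, 2 were also among the filtered barcodes of IR blood and 2 among those of IR tumor.

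The labels were checked on Lyz2 and Ythdf2. Lyz2, the gene that carries Cre, was at 7827 CPM in control WT and 11385 in IR WT granule-rich cells, and at 175 and 85.5 CPM in control cKO and IR cKO. The hashtag groups are thus separated by Lyz2 in the direction of the labels. Ythdf2 itself (chromosome 4, 132184912 to 132212303) was at 35.4 CPM in control WT, 118 in control cKO, 16.4 in IR WT and 105 in IR cKO, higher in the cells labelled cKO. These are 3′ tags, and where they lie outside the deleted part they do not check the deletion.

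Of 7 listed primary granule genes, 6 were scarce outside 1 barcode. Mpo, Elane, Prtn3, Ctsg, Prss57 and Ms4a3, which belong to the primary granule stage, had 4 UMIs in all in control WT, 5 in control cKO and 2 in IR cKO. In IR WT they had 912, of which 906 came from 1 barcode with 28728 gene UMIs, among them 407 of Elane (neutrophil elastase), 292 of Prtn3 (proteinase 3) and 131 of Mpo (myeloperoxidase). That barcode also held 129 of the group's 141 UMIs of Fcnb (ficolin B) and 91 of the 117 UMIs of the cell cycle genes Mki67, Top2a, Ccnb2, Birc5, Stmn1, Pclaf, Cdk1 and Ube2c. The progenitor genes Cd34, Kit, Sox4 and Flt3 had no UMI in control WT and IR cKO, 14 in control cKO and 1 in IR WT. Cd63, the remaining gene of the list and also a lysosomal membrane protein, was at 165, 185, 408 and 329 CPM against 158, 143, 163 and 147 in the other neutrophils, with log2 ratios of 0.06, 0.37, 1.32 and 1.16. The IR WT barcode with primary granule messages held 35 of the 124 Cd63 UMIs of its group, and without it Cd63 stood at 323 CPM there. Erythroid genes had 1106 UMIs in control cKO, of which 1026 came from 1 cell.

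Against the other neutrophils of their own group, granule-rich cells held more of further secondary granule messages and less of early response and inflammatory messages. Levels are UMIs summed over the cells of a group as CPM, and a difference is the log2 ratio of 2 such levels after 1 UMI, scaled to depth, was added to each. A gene was counted in a comparison with at least 100 UMIs in both sums together, and passed the limit with a log2 ratio of at least 1 in size, here in the same direction in all 4 groups. Of 4569 counted genes, 56 were higher (1.23%) and 222 lower (4.86%). The cells were chosen by counts that enter these sums, so the values describe the choice and nothing is tested. The median log2 ratio over all counted genes was -0.38, since the rule's own genes take a large share of UMIs in these cells. With totals that leave out the 8 rule genes the median was -0.02, and 122 genes were higher and 89 lower.

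Of the 9 secondary granule genes listed beside the rule, all were counted and 6 were higher in all 4 groups. Lcn2 (chromosome 2, 32384633 to 32388252) stood at 7346 CPM in control WT, 9522 in control cKO, 11885 in IR WT and 8712 in IR cKO, against 1225, 2408, 1512 and 1532 CPM in the other neutrophils. These ranges do not overlap, and the log2 ratios were 2.58, 1.98, 2.97 and 2.51. Mmp8 (neutrophil collagenase, chromosome 9, 7558456 to 7568485) was at 2026, 2574, 1483 and 2479 CPM against 352, 572, 421 and 527. Cd177, a surface protein also stored in granules, was at 540, 819, 697 and 631 CPM against 39.4, 118, 41.7 and 52.8. Among other neutrophils both were highest in control cKO, the group in which the selected cells were most frequent. Chil3, a chitinase-like protein, was at 681, 992, 2253 and 973 CPM against 46.5, 50.5, 23.2 and 31.9, with a ratio in IR WT (6.59) above those of the other groups (3.87 to 4.92). Cybb, the membrane subunit of the NADPH oxidase, had log2 ratios of 2.58, 2.51, 3.41 and 3.65, and Olfm4 of 4.62, 1.94, 3.49 and 3.77. Olfm4 UMIs came from few cells, 6.1% of those in control WT and 4.5% in control cKO. The remaining 3, Hp (haptoglobin), Pglyrp1 and Cyba, had ratios between -0.49 and 0.66 and did not pass the limit.

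**Figure D2:**
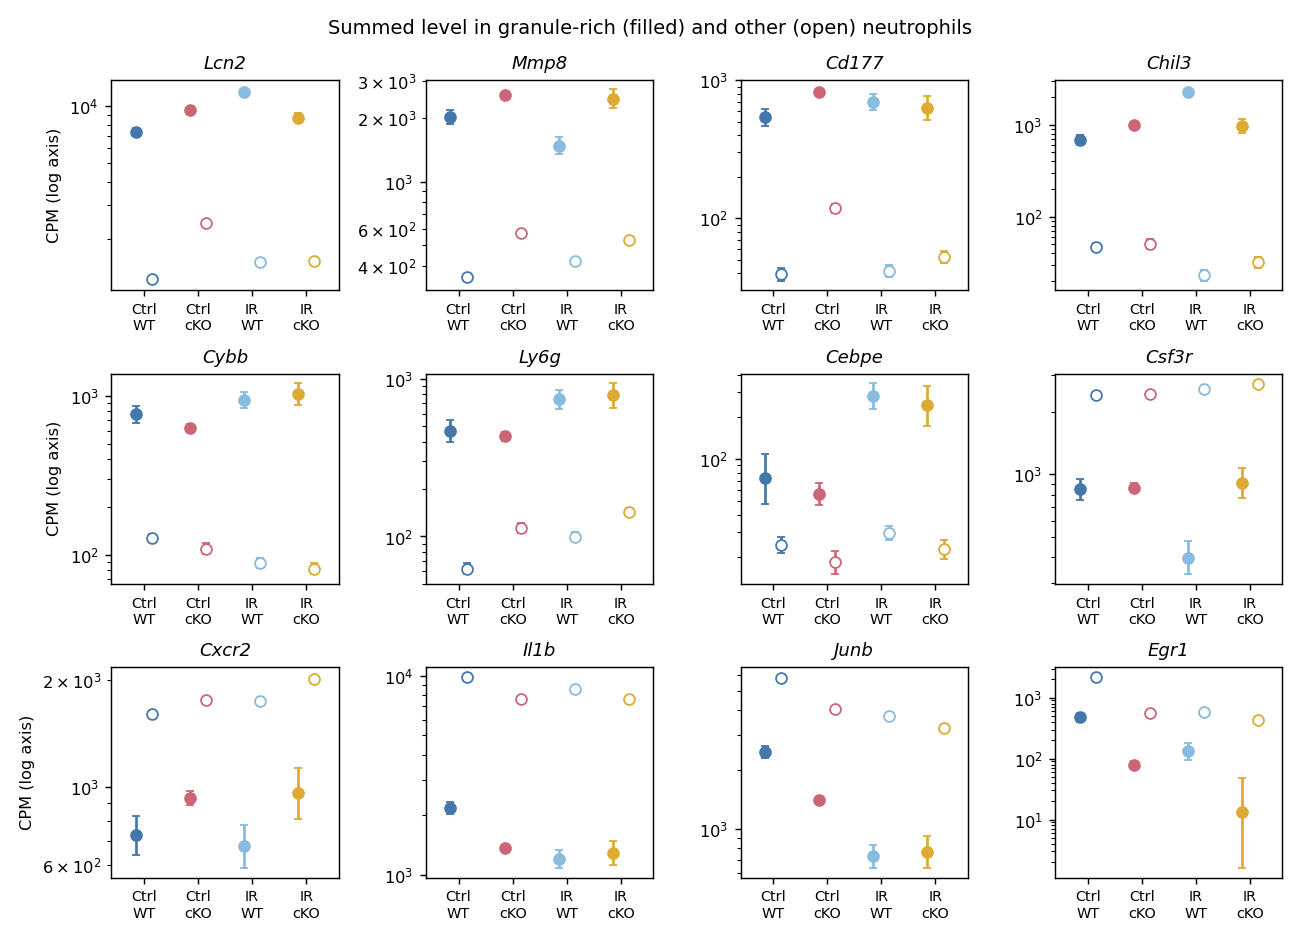
Summed level (CPM, log axis) of 12 genes in granule-rich (filled) and other (open) neutrophils of the 4 blood groups, with 95% Poisson intervals for counting error. Lcn2, Mmp8, Cd177, Chil3, Cybb, Ly6g and Cebpe lie higher in granule-rich cells in every group, and Csf3r, Cxcr2, Il1b, Junb and Egr1 lower, where the Egr1 level of IR cKO rests on 2 UMIs.

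Genes of the gelatinase granules differed less. Of the 5 counted gelatinase granule genes only Mmp25, a membrane-bound protease, was higher in all groups (log2 ratio 1.23 to 1.73), while Mmp9, the gelatinase itself, had ratios of -0.13 to 0.42. Among 4 counted surface antigen genes, those of the sort and Ly6g, which the sort did not use, Ly6g (chromosome 15, 75155240 to 75159126), the surface marker of mouse granulocytes, was at 469, 433, 743 and 789 CPM against 62.5, 114, 99.8 and 143. Ly6c2, which encodes the Ly6C of the gate, was at 814, 588, 832 and 631 CPM against 130, 143, 156 and 166. Itgam (CD11b) had ratios of 0.15 to 0.35, and Ptprc (CD45) of -1.48 to -0.80. Granule-rich cells thus carried more Ly6g and Ly6c2 message together. Whether the Ly6C gate favored them, and so raised their shares, was not tested.

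Cebpe, the gene of C/EBPε, was the only granulopoiesis factor of 6 counted that was higher in all groups. It stood at 73.7, 56.4, 283 and 243 CPM against 24.4, 18.2, 29.7 and 22.7 CPM, with log2 ratios of 1.58, 1.62, 3.24 and 3.41, and its 2 highest levels were those of the IR groups. Cebpb, Cebpd, Spi1 and Klf2 had ratios below 0 in each group. By the rule for named genes the largest further differences were those of Adpgk, an ADP-dependent glucokinase, at 466, 442, 608 and 579 CPM against 12.4, 42.4, 14.2 and 14.5, and of Serpinb1a, which inhibits neutrophil serine proteases, at 212, 334, 674 and 303 CPM against 7.74, 17.4, 7.78 and 10.2. Adpgk was found in 70.7% to 78.1% of granule-rich cells and in 3.10% to 8.45% of the others. Mgst2, Anxa3, Ifitm6, Syne1, Lta4h (which makes leukotriene B4), Hsd11b1 and Lims1 followed with median ratios of 2.33 to 3.45 over the groups.

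Of the 10 lowest genes by the rule, 1 was on a fixed list, the inflammatory gene Ptgs2. This gene, which encodes cyclooxygenase-2, was at 195, 35.2, 78.9 and 39.5 CPM against 1017, 365, 630 and 452 in the other neutrophils. Ccrl2, a chemokine-binding receptor, had log2 ratios of -4.40, -2.69, -2.66 and -3.28, and Prr5l of -2.95, -3.37, -3.78 and -2.66. Clec4n, which encodes dectin-2, had no UMI in granule-rich cells of control WT and IR cKO, 9 in control cKO and 2 in IR WT, and 45.1 to 65.2 CPM in the others. AU019990, Ivns1abp, Cass4, D930030I03Rik, 5430425K12Rik and AW011738 completed the 10 lowest, and each had at most 41 UMIs in the granule-rich cells of any group.

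Of 10 immediate early genes, which respond within minutes to a stimulus or to handling, 9 were lower in all 4 groups (median log2 ratio -1.51), and Jun was not (-0.20 to 0.13). Junb was at 2471, 1409, 730 and 769 CPM against 5846, 4073, 3748 and 3267. Of 9 counted inflammatory genes, 5 were lower, with a median of -1.74. Il1b was at 2165, 1356, 1197 and 1289 CPM against 9777, 7628, 8513 and 7616, and was found in 53.1% to 77.3% of granule-rich cells and in 99.3% to 99.8% of the others. Of 11 counted interferon-stimulated genes 3 were lower in all groups, and the median was -0.22 in control WT and -2.15 in IR WT. Of 8 receptors of mature neutrophils, Trem1 alone was lower in all groups, and the list's median of -0.94 is to be read against -0.38 for all genes. No gene of these 4 lists was higher in all groups. The immediate early count depended on scaling, with 9 genes by total UMIs, 5 with TMM factors and 2 with totals that leave out the rule genes, and each of these 3 scalings gave a median below that of all genes. Ribosomal protein genes had a median of -0.05, with 1 of 82 lower, and no p53 target (7 counted) or proliferation gene (3 counted) passed the limit in all groups.

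**Figure D3:**
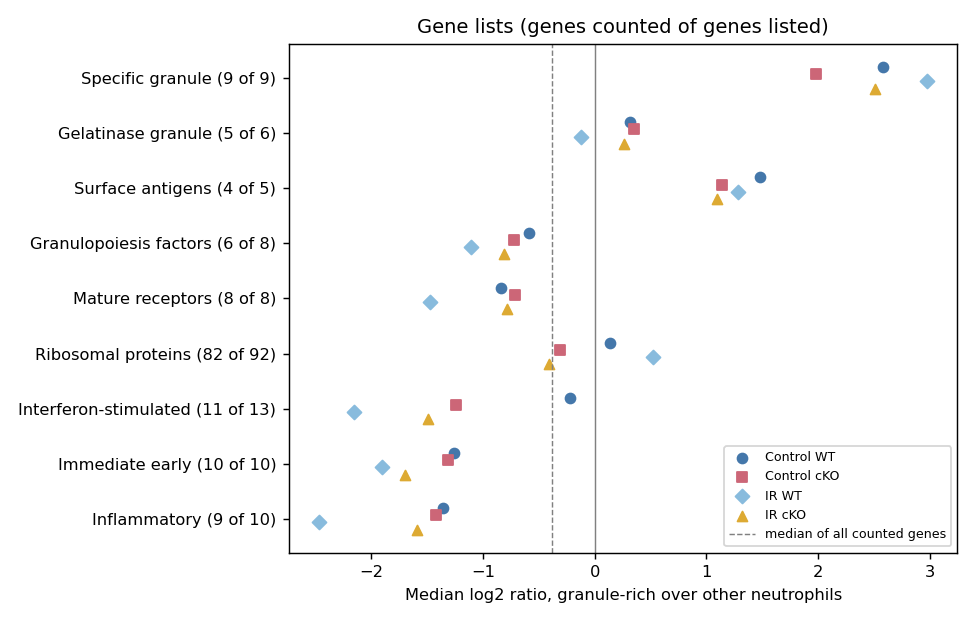
Median log2 ratio of granule-rich over other neutrophils for 9 gene lists in the 4 blood groups, with the number of genes counted out of those listed; the dashed line is the median of all counted genes (-0.38). Secondary granule genes lie to the right of that line in every group, as do the surface antigens (Ly6g and Ly6c2 high, Itgam and Ptprc not), and immediate early and inflammatory genes lie to the left.

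At like depth the Lcn2 and Il1b differences were smaller. Among the 33 granule-rich cells of 1000 to 3000 UMIs, set against other neutrophils of that range, the log2 ratio of Lcn2 was 1.65, 1.61, 0.99 and 0.40, and that of Il1b was -0.19, -1.29, -2.69 and -0.51. The directions were kept in each group for both genes, and all groups but control cKO rested on at most 4 cells there. No immediate early gene passed the limit in all 4 groups in that range, against 9 at all depths. In control WT none of the 10 passed, with Junb at -0.36 and Egr1 at -0.27, and in control cKO 4 passed, namely Egr1 (-3.44), Fosb (-1.75), Btg2 (-1.21) and Fos (-1.15), with Junb at -0.83.

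Granule-rich cells were divided by the share of their gene UMIs that was Ngp, Camp or Ltf into under 0.3%, 0.3 to 1%, 1 to 3% and 3% or more, which held 25, 10, 6 and 8 cells in control WT, 204, 88, 34 and 49 in control cKO, 13, 3, 4 and 12 in IR WT and 13, 3, 2 and 4 in IR cKO. These bins are cut on the rule's own genes, so the values along them are a description. Median depth also differed, at 4050, 4985, 6957 and 8328 gene UMIs from the lowest to the highest share in control cKO, and its part in the levels was not tested. In control cKO, the largest group, Lcn2 stood at 6505, 8525, 9281 and 17047 CPM from the lowest to the highest share, Chil3 at 84.9, 204, 1005 and 3703, and Cybb at 231, 307, 796 and 1668. Over the same steps Csf3r, a rule gene that encodes the receptor of granulocyte colony-stimulating factor, stood at 1331, 817, 404 and 219 CPM, Il1b at 2544, 721, 244 and 195, and Junb at 1958, 1425, 990 and 494. Retnlg, also a rule gene, was at 34085, 43834, 24178 and 11450 CPM. In all 4 groups Lcn2, Chil3 and Cybb were higher, and Csf3r, Il1b and Junb lower, at 3% or more than under 0.3%.

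**Figure D4:**
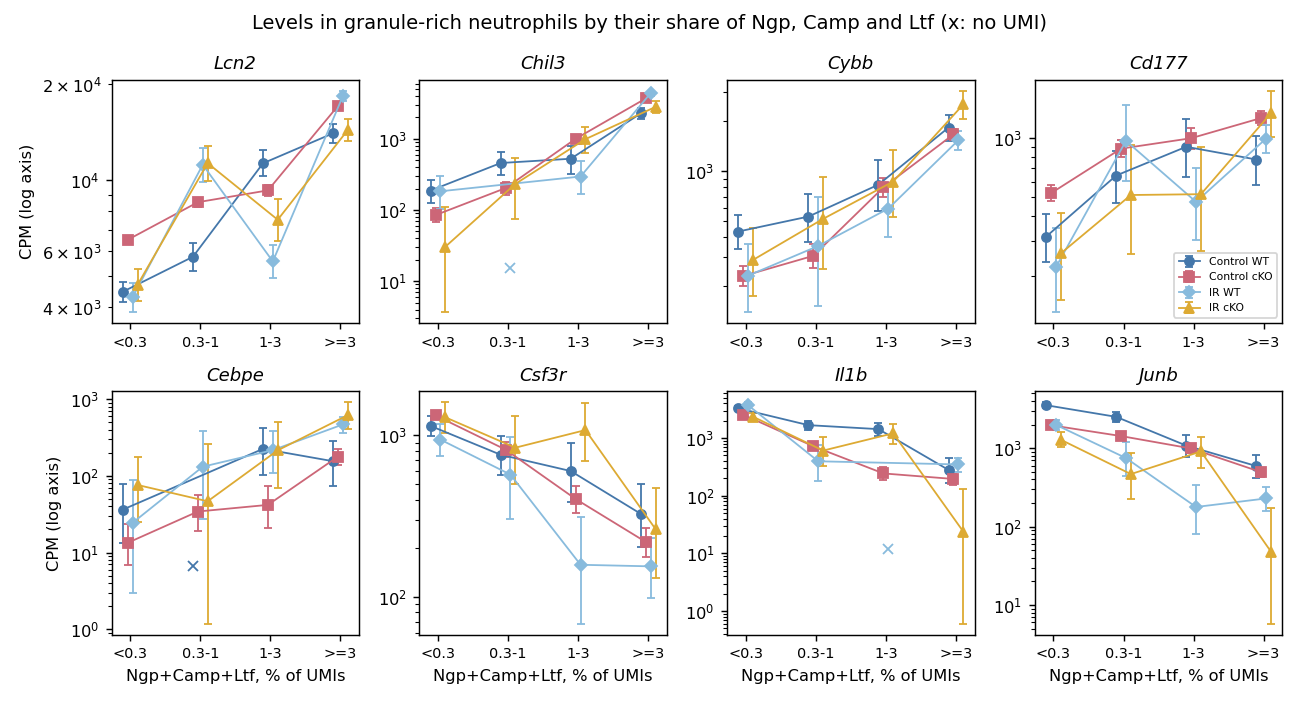
Summed level (CPM, log axis) of 8 genes in granule-rich neutrophils divided by the share of gene UMIs that was Ngp, Camp or Ltf, for the 4 blood groups with 95% Poisson intervals for counting error; a cross at an arbitrary height marks cells without a UMI of the gene. In control cKO (204, 88, 34 and 49 cells) Lcn2 stood at 6505 to 17047 CPM from left to right and Csf3r at 1331 to 219 CPM.

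The fullest cells were found in every group. Cells with 3% or more made up 0.252% of neutrophils in control WT, 1.93% in control cKO, 0.382% in IR WT and 0.153% in IR cKO, so control cKO was highest for these cells as well. They were 16.3%, 13.1%, 37.5% and 18.2% of the granule-rich cells of their group. The larger part of the excess in control cKO lay in the cells with the lowest share, at 8.03% of neutrophils against 0.786%, 0.414% and 0.499%.

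Between IR and control, granule-rich WT cells summed together differed in Chil3, Cebpe and part of the early response genes. Of 713 counted genes, 17 were higher after IR (2.38%) and 33 lower (4.63%). Ngp, Camp and Ltf were all higher, by a median log2 ratio of 1.27. They are rule genes, and cells of 3% or more were a larger share of IR WT than of control WT cells. Chil3 rose from 681 to 2253 CPM (log2 ratio 1.72, interval 1.51 to 1.95), Cebpe from 73.7 to 283 (1.90, 1.28 to 2.64), Serpinb1a from 212 to 674 (1.65) and Lta4h from 79.6 to 270 (1.72). Chil3 was the only secondary granule gene of 8 counted past the limit. From the lowest to the highest share of granule UMIs, Chil3 stood at 188, 458, 526 and 2286 CPM in control WT. In IR WT it stood at 184, 0, 296 and 4397 CPM, so it was higher after IR only at 3% or more. The part of the mix of cells in the summed difference was not tested. Egr1 fell from 475 to 132 CPM (log2 ratio -1.83), Junb from 2471 to 730 (-1.75), Cxcl2, a neutrophil chemoattractant, from 2934 to 746 (-1.97), and Cebpb from 2156 to 753 (-1.51). Of 8 counted immediate early genes 4 fell, with a median of -1.01 against -0.13 for all genes. In the other WT neutrophils the log2 ratio was -1.87 for Egr1, -0.64 for Junb and -0.62 for Cxcl2, and -0.997 for Chil3, so Chil3 lay in the opposite direction there.

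The 1 IR WT barcode with primary granule messages decides part of these counts. Without it, a choice made after its values were seen, 8 genes were higher and 27 lower. Fcnb, at 464 CPM after IR and without a UMI in control WT, came to 129 of 141 UMIs from this barcode, and Ptma, Rps20, Hmgn2 and Cd63, also among the 10 highest, dropped under the limit. Cebpe (1.88), Chil3 (1.85), Serpinb1a (1.32), Lta4h (1.68) and Cpne3 kept it. Among lower genes, Apoe and Ctss came from few cells, with 67 of the 107 Apoe UMIs of control WT in 1 cell. Control WT granule-rich cells had 593 CPM of the monocyte genes Csf1r, Ccr2, F13a1, Ms4a6c and Ly86 together, against 298 in other control WT neutrophils and 247 in IR WT granule-rich cells, and the part of this in the lower genes was not tested. Of these monocyte UMIs in granule-rich cells, 1 cell held 69 of 201 in control WT and 1 cell held 62 of 75 in IR WT. With the 4-fold hashtag margin for WT too, 52 genes were higher and 20 lower, so the balance of directions turned, and with totals that leave out the rule genes 21 were higher and 23 lower.

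In cKO the comparison set 22 cells after IR against 375 in control. Of 2008 counted genes, 26 were higher after IR (1.29%) and 127 lower (6.32%), and with TMM factors 12 were higher and 187 lower. Cebpe rose from 56.4 to 243 CPM (log2 ratio 2.09, interval 1.53 to 2.65), and was found in 51 of 375 control cells and 7 of 22 IR cells. Within cells of 3% or more it was at 156 CPM (interval 74.6 to 286) in control WT, 179 (141 to 224) in control cKO, 470 (366 to 594) in IR WT and 621 (406 to 910) in IR cKO. These were 8, 49, 12 and 4 cells, and their Ngp level also differed, at 33973, 36788, 41489 and 45219 CPM. In the same order of groups, Cebpe was at 36.4, 13.4, 24.5 and 76.2 CPM under 0.3%. It was at 0, 34.3, 132 and 46.7 CPM at 0.3 to 1%, and at 226, 41.9, 217 and 216 CPM at 1 to 3%. Both IR levels were thus above both control levels among the fullest cells, but IR WT was below control WT under 0.3% and at 1 to 3%. Ifi27l2a and Isg15, which are interferon-stimulated, rose by log2 ratios of 1.81 and 1.21, and 2 of 6 counted genes of the interferon list rose. Of the 166 Ifi27l2a UMIs after IR, 70 came from 1 cell. In the other cKO neutrophils these log2 ratios were 1.28 and 0.96, and 3 of 13 genes of the list rose. H2afz, a histone variant, rose from 345 to 835 CPM. No secondary granule gene of 9 passed the limit, and their median was -0.05.

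Several lower genes in cKO after IR were scarcely found in the 22 cells. Mcam, an adhesion molecule, had 131 UMIs in 95 control cKO cells and none after IR, which puts its log2 ratio at or below -1.72 at the limit of 3 UMIs that a count of 0 allows, and its counting interval ends at -1.40. Ahnak (329 UMIs against 1), Il1rap, the coreceptor of IL-1 (261 against 1), Cd14, a lipopolysaccharide coreceptor (772 against 6), and Orm1, an acute phase protein (236 against 2), had intervals of the log2 ratio that end between -1.28 and -2.15 at the side nearest 0. In the other cKO neutrophils the log2 ratio was -2.29 for Mcam, -2.13 for Ahnak, -1.48 for Cd14, -1.21 for Orm1 and -0.84 for Il1rap. Il1r2, the IL-1 decoy receptor, fell from 642 to 132 CPM, and from 333 to 125 CPM in WT. Hbb-bs, a globin gene, had 667 UMIs in 42 control cKO cells and 0 after IR, and 624 of the 667 came from 1 cell.

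Over the 708 genes counted in both, 9 fell after IR in WT and in cKO, which is 27.3% of the 33 that fell in WT and 52.9% of the 17 that fell in cKO. Of the genes that rose, 2 did so in both, 15.4% of 13 and 28.6% of 7. Of all genes counted in each comparison, 4.63% fell in WT and 6.32% in cKO, and 2.38% and 1.29% rose. No cells are shared by these comparisons, but both set the same IR library against the same control library, so a library difference would enter both.

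In control blood, cKO granule-rich cells were set against the 49 of WT. Of 2165 counted genes, 29 were higher in cKO (1.34%) and 86 lower (3.97%). This balance depended on scaling and on the choice of WT cells, since 124 were higher and 35 lower with TMM factors, 105 and 31 with the 4-fold hashtag margin for WT too, and 61 and 32 without barcodes with UMIs of other lineages. The median over all counted genes moved from -0.09 to 0.27 with TMM factors. Higher genes included Orm1 (117 against 11.8 CPM), Fkbp5, a glucocorticoid-induced cochaperone (76.7 against 14.7), Il1rap (129 against 35.4), Mcam (64.9 against 17.7) and Crispld2 (243 against 82.6), with log2 ratios of 3.22, 2.31, 1.84, 1.83 and 1.55. Orm1 rested on 4 UMIs and Fkbp5 on 5 UMIs in control WT. Their log2 ratios in other control neutrophils, cKO over WT, were 1.87, 2.32, 0.995, 2.65 and 1.55, so these genes were also higher in the cKO neutrophils that were not selected, Il1rap just under the limit. None of the 9 secondary granule genes passed the limit, and their median was 0.35.

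Lower genes in control cKO were in part those of monocytes. Egr1 was at 78.7 CPM in cKO and 475 in WT (log2 ratio -2.58, interval -2.92 to -2.27), and Ptgs2 at 35.2 and 195 (-2.44), and in the other control neutrophils these ratios were -1.94 and -1.48. Fn1, Ifi30, Ms4a6c, S100a10 and Apoe were also among the 10 lowest, and each was found in at most 8 of the 49 WT cells. Monocyte genes summed to 173 CPM in control cKO granule-rich cells and 593 in those of control WT, where 9 of 49 cells had at least 2 such UMIs. Of these monocyte UMIs, 1 cell held 69 of 201 in control WT and 1 cell held 44 of 349 in control cKO. Ribosomal protein genes had a median of -0.75 with 21 of 77 lower. Without barcodes with UMIs of other lineages their median was 0.07 with none lower, and with the 4-fold hashtag margin for WT 0.04 with 1 lower. With TMM factors 4 were lower. The ribosomal difference thus depended on the choice of barcodes and on scaling, and which of these it came from was not tested.

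After IR, 22 cKO cells were set against 32 WT cells. Of 469 counted genes, 6 were higher in cKO (1.28%) and 62 lower (13.2%), and with TMM factors 17 and 45. Of these 62, 39 were ribosomal protein genes, with a median over 69 of -1.08. Without the 1 IR WT barcode with primary granule messages, 4 genes were higher and 22 lower, 10 of 58 ribosomal genes were lower and their median was -0.54. Without barcodes with UMIs of other lineages, 6 genes were higher, 3 lower and no ribosomal gene was lower. Ltb, which encodes lymphotoxin beta, was at 421 CPM in cKO and 148 in WT (log2 ratio 1.48, interval 0.94 to 2.09), and Slfn4 and Ifi27l2a, both interferon-stimulated, had log2 ratios of 1.20 and 1.15. These 3 kept the limit without that barcode, at 1.34, 1.08 and 1.01, while Stfa2l1 and Fyb did not. The Ifi27l2a level in IR cKO rests in part on the 1 cell with 70 of its 166 UMIs. Chil3 summed over all cells was lower in cKO, at 973 against 2253 CPM. From the lowest to the highest share of granule UMIs it was at 30.5, 233, 993 and 2819 CPM in cKO. In WT it was at 184, 0, 296 and 4397 CPM, so the direction differed between shares. Over 465 genes counted in both genotype comparisons, 17 were lower in cKO in control and after IR, 73.9% of the 23 lower in control and 29.3% of the 58 lower after IR. Of all genes counted in each comparison, 3.97% were lower in control and 13.2% after IR. The overlap was not recounted without barcodes with UMIs of other lineages, where only 3 genes were lower after IR.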

How the data were processed

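Cells were captured with a droplet 3′ kit, and messenger RNA and hashtag reads of a library are in 1 matrix. The deposited values are raw UMI counts per gene and barcode, made by the authors with Cell Ranger 6.0.1 on mm10 per the methods (the file headers name version 4), before any filter on cells. The study removed barcodes by genes and mitochondrial share, called doublets with DoubletFinder and assigned hashtags in Seurat 4.0.6. None of those calls was used here, no doublet caller was run, and barcodes were selected by the rule stated above. The members, gene lists and comparisons were chosen with earlier results of these data known. UMIs were summed per group (Python 3.11.15, numpy 2.4.6, pandas 2.3.3), and intervals came from scipy 1.17.1 (exact Poisson, exact conditional binomial, Clopper-Pearson) and statsmodels 0.14.6 (Newcombe). They cover counting error only. The blood matrices held 51731085 (control) and 51653956 (IR) gene UMIs. Named genes were those of the lists, plus the 15 highest and 10 lowest log2 ratios against other neutrophils and the 10 highest and 10 lowest between groups, past the limit and found in at least 5% of cells of the higher side, without rule genes, Ythdf2, Lyz2, Lyz1 and mitochondrial genes. Other genes and barcodes named were chosen after their values were seen. Alternatives were minimums of 5 granule UMIs and of 50 and 200 UMIs per gene, thinning, a depth range, a hashtag margin for WT, a neutrophil limit of 10%, TMM factors (edgeR 4.0.16), totals without rule genes, and no barcodes with at least 2 UMIs of other lineages. The step that counts genes past the limit was tested on simulated data. Gene positions came from GENCODE vM21 by identifier, and 223 of 223 matched. Columns of per-sample values left unused numbered 0.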

Additional observations from a re-analysis of the deposited data

Results flagged for a closer look

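The share of granule-rich cells among sorted neutrophils was 13.2 percentage points higher in cKO than in WT blood without IR. The same difference after IR was -0.175 points. These results stand out because the genotype difference had opposite signs in control and irradiated mice at the rule's minimum of 3 UMIs. At a minimum of 1 UMI the share after IR was 4.99% in cKO and 4.17% in WT, and at 2 UMIs 1.53% and 1.46%, so the sign after IR turned at lower minimums. The difference between them was not tested, since each group was 1 pool, and the interval of the second (-0.680 to 0.348) includes 0.

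Barcodes with a hashtag ratio between the limits of both genotypes enter no comparison. In control blood 23 of 288 such neutrophils were granule-rich, which is 7.99% (5.13% to 11.7%), and in IR blood 0 of 263 were. The control value lies between those of control WT (1.54%) and control cKO (14.8%).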

How the results depend on the processing

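None of the 4 share differences changed sign under the 6 alternatives, though cKO against WT after IR turned at minimums of 1 and 2 UMIs, and with 1 pool per group no sample could be left out. No paired analysis was possible because each group holds 1 pool. The share differences that moved beyond their counting interval were those of IR against control in cKO, at -10.9 points with 5 granule UMIs, -4.84 after thinning, -1.60 in cells of 1000 to 3000 UMIs and -15.9 with the neutrophil limit at 10%, and of cKO against WT in control, at 10.3, 4.53, 1.48 and 14.95 points in the same order. Within their intervals, IR against control in WT ranged from -0.649 to -0.0588 points (main value -0.522) and cKO against WT after IR from -0.266 to -0.0405 (-0.175). Genes past the limit between IR and control WT numbered 50, and 106 and 24 with minimums of 50 and 200 UMIs, 2 in the depth range and 26 without barcodes with UMIs of other lineages. In cKO they numbered 153, and 433, 52 and 20 under the first 3 of these. Between cKO and WT in control they numbered 115, and 300, 56 and 4. After IR they numbered 68, and 113, 43 and 2, 9 without barcodes with UMIs of other lineages and 26 without the 1 IR WT barcode with primary granule messages, an alternative chosen after seeing the data. Against other neutrophils the count of 278 ranged from 211 to 362, and in the depth range 3 genes were higher and 345 lower. The depth range holds 1 to 26 granule-rich cells per group, which limits what it can show, and fewer genes were counted there. The cause of the other shifts was not tested.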
